A study of Homo sapiens with 9 samples.

Results

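TGFBI, periostin (POSTN) and the 4 matrilins (MATN1, MATN2, MATN3 and MATN4) encode secreted proteins of the extracellular matrix. They were followed in TC32 cells, a line established from Ewing sarcoma, a tumour of bone and soft tissue. The 6 genes were taken by symbol from the 58233 genes of the tables, and each symbol matched 1 gene. RNA sequencing was done on polyadenylated RNA from cultures grown in medium with fetal bovine serum, in 3 groups of 3 libraries. One group received Wnt3a for 28 h, with SB-505124 present for the last 24 h after 4 h of Wnt3a alone; these are called inhibitor cells. The next received Wnt3a for 28 h with DMSO as the solvent of the inhibitor, and the third received the solvents PBS and DMSO and is called vehicle. No group received SB-505124 without Wnt3a, and all libraries come from 1 cell line. Nothing in the labels says that the 3 replicates of a group came from separate cultures, so the spread behind each p-value is that of libraries and could be technical.

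TGFBI and periostin are built from repeated fasciclin domains, bind integrins on the cell surface and associate with collagens. TGFBI is named for its induction by TGF-β, and periostin is a product of bone lining cells and wound fibroblasts that is also known as a TGF-β-responsive gene. Matrilins are adaptor proteins with von Willebrand factor A domains that link collagen fibrils to proteoglycans. MATN1 and MATN3 are known from cartilage, while MATN2 and MATN4 occur in many tissues. Wnt3a activates β-catenin signalling, and SB-505124 inhibits type I receptor kinases of TGF-β and activin signalling.

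Library totals ranged between 28844348 and 42976799 expected counts, with the lowest in inhibitor replicate 1 and the highest in Wnt3a replicate 3. AXIN2, a feedback target of β-catenin, averaged 31.1 ± 4.10 CPM (counts scaled to library size) in inhibitor cells, 20.1 ± 2.82 with Wnt3a and 3.29 ± 0.326 in vehicle (SD, n = 3 each). PMEPA1, a feedback gene of TGF-β signalling, averaged 14.0 ± 0.545 CPM in inhibitor cells, 48.3 ± 6.66 with Wnt3a and 47.2 ± 2.52 in vehicle. All 10 Ewing sarcoma markers were detected, with CD99 at 945 to 1243 TPM (transcript abundance scaled by length and library) in inhibitor libraries, 1247 to 1392 with Wnt3a and 1454 to 1597 in vehicle. On the second principal component of all genes tested, with 14.9% of the variance, the first inhibitor library had a coordinate of 75.4, against -31.2 and -28.3 for inhibitor replicates 2 and 3. Values without inhibitor replicate 1 are given beside most tests that use it. They are not given for group means, summed marker levels, correlations, shares of all genes or counts of groups that do not overlap.

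The sequence next to the start site is shown for TGFBI, POSTN and MATN3, whose mean TPM differed most between groups, from RefSeq on build GRCh38.p14. Each stretch is the part of the 250 bases before the RefSeq start that also lies outside the gene in GENCODE 29, and runs 5′ to 3′ on the gene's own strand. Of the 6 genes, 4 had an entry in that table. Capitals mark matches on either strand to a SMAD-binding box (CAGAC), an AP-1 site (TGANTCA) or a TATA box (TATAAA).
TGFBI, plus strand, chr5:136028738-136028894: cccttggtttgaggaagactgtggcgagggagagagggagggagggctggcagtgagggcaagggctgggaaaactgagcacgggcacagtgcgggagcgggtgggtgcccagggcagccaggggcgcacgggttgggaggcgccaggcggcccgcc
POSTN, minus strand, chr13:37598845-37599018: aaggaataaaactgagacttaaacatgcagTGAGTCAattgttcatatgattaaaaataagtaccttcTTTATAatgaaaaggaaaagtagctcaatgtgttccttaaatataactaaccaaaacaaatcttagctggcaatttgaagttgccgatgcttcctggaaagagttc
MATN3, minus strand, chr2:20012695-20012918: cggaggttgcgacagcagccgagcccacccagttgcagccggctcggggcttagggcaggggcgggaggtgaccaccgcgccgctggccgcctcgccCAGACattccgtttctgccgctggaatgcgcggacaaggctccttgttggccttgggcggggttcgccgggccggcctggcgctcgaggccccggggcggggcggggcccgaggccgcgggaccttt

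Over the full 250 bases the TGFBI and MATN3 windows were GC-rich, at 72.8% and 74.0%, whereas the POSTN window had 36.4%; the median of all windows was 58%. The SMAD-binding box was present once in POSTN, from the last printed base into the bases not printed, once in MATN3 and not in TGFBI, and 38% of 35116 promoter windows hold it. POSTN had an AP-1 match, as 6.57% of windows do, and 2 TATA box matches, 1 of them in the bases not printed; 10.7% of windows have at least 1. Neither form of the TCF/LEF core searched (CTTTGA and CTTTGT, in 11.2% and 13.7% of windows) was found in any of the 3. A match describes letters in a short window and is not a measured site.

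TGFBI was by far the most abundant of the 6 genes in every library. On the length-scaled TPM scale it took 84.5% to 86.7% of the summed level of the 6 genes in inhibitor libraries, 86.1% to 93.4% with Wnt3a and 79.6% to 87.2% in vehicle. In vehicle cells the order of mean levels was TGFBI at 64.9 ± 15.2 TPM, MATN2 at 7.73 ± 0.779, POSTN at 2.57 ± 1.68, MATN3 at 0.910 ± 0.410, MATN1 at 0.393 ± 0.110 and MATN4 at 0.0300 ± 0.0265 (SD, n = 3). The ranges of neighbouring genes did not overlap there except for MATN1, whose highest library of 0.480 TPM reached the lowest of MATN3 at 0.470. In inhibitor cells the order was TGFBI at 76.2 ± 4.04, MATN2 at 7.42 ± 0.525, MATN3 at 3.70 ± 0.705, POSTN at 1.47 ± 0.925, MATN1 at 0.0567 ± 0.0896 and MATN4 at 0; of these neighbours only MATN1 and MATN4 overlapped, both at 0 in replicate 2. With Wnt3a, MATN3 at 11.8 ± 5.07, POSTN at 9.76 ± 4.68 and MATN2 at 7.26 ± 1.14 overlapped and could not be ordered, below TGFBI at 287 ± 84.5 TPM and above MATN1 at 0.290 ± 0.160 and MATN4 at 0.0167 ± 0.0153.

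**Figure D1:**
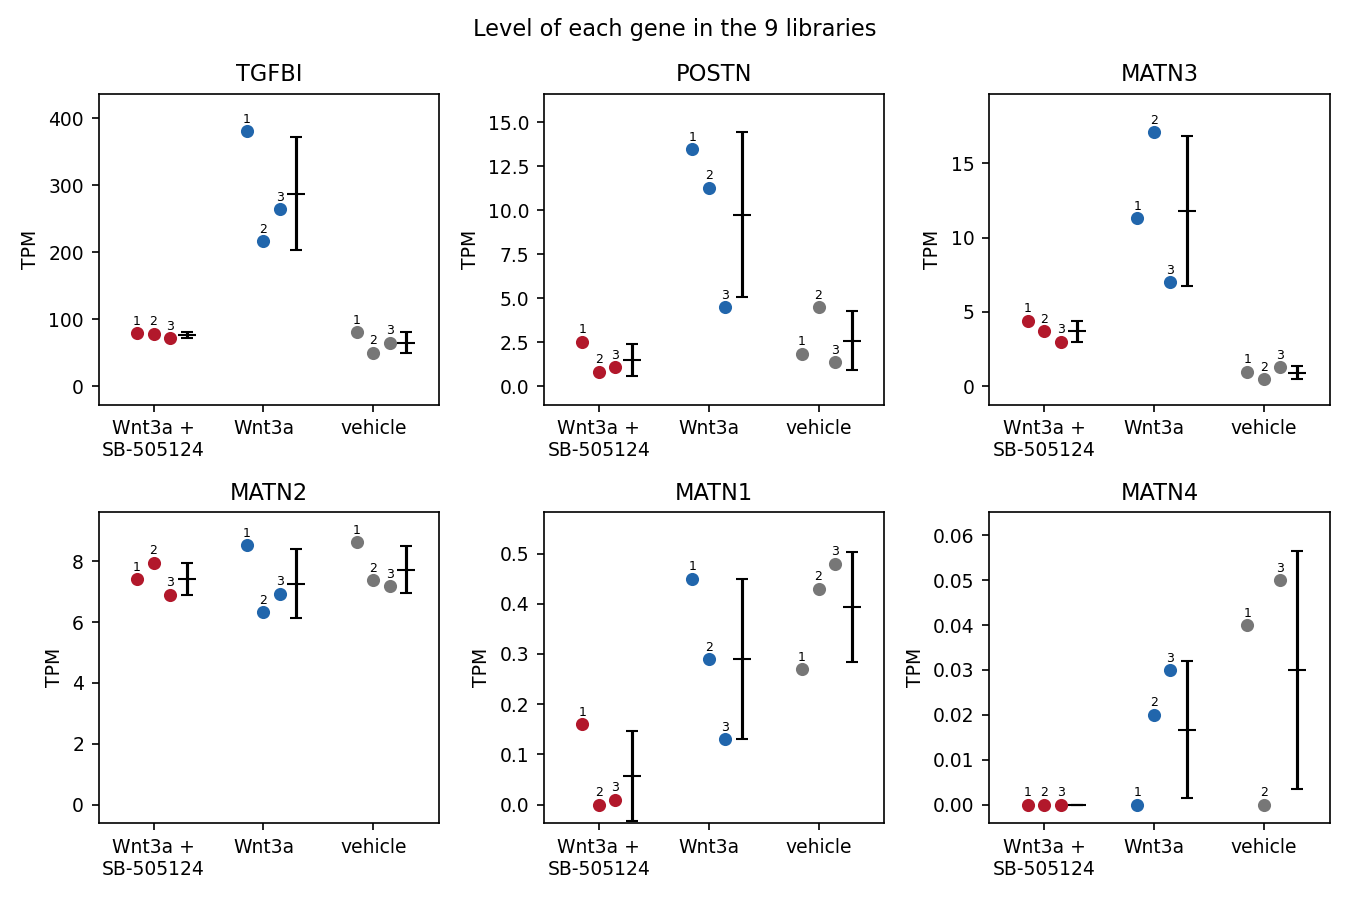
TPM of TGFBI, POSTN, MATN3, MATN2, MATN1 and MATN4 in each library, with the group on the horizontal axis (inhibitor cells, Wnt3a, vehicle) and the replicate number above each point. Bars give mean ± SD of 3 libraries. TGFBI, POSTN and MATN3 have their highest mean with Wnt3a, MATN2 is level across the groups, and MATN1 and MATN4 stay below 0.5 TPM. For POSTN the lowest Wnt3a library, at 4.50 TPM, meets the highest vehicle library, at 4.49 TPM.

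Of the 6 genes, 5 had enough counts to be tested. With the inhibitor against Wnt3a 4 of the 5 passed an edgeR adjusted p of 0.05, in a comparison where 50.4% of 17880 genes did: 1 rose (24.5% of all genes) and 3 fell (25.9%). Without inhibitor replicate 1 MATN1 passed there as well, lower in inhibitor cells (edgeR adjusted p = 0.0021). Of all genes, 9613 were called then, against 9013 with that library. With the inhibitor against vehicle 2 passed, where 49.7% of all genes did: 1 rose (25% of all genes) and 1 fell (24.8%). These shares of all genes are large, and nothing about the members is read from their counts there. With Wnt3a against vehicle 2 passed, where 0.419% of all genes did: both rose (0.397% of all genes) and 0 fell (0.0224%). By CPM in single libraries, the inhibitor and Wnt3a groups did not overlap for 5 genes, 1 higher and 4 lower, as for 58.1% of all genes (27.8% higher, 30.3% lower). The inhibitor and vehicle groups did not overlap for 3 genes, 2 higher and 1 lower, as for 58.4% of all genes (28.5% higher, 29.8% lower). The Wnt3a and vehicle groups did not overlap for 2 genes, both higher, as for 17.5% of all genes (9.34% higher, 8.19% lower). In bulk RNA, fewer cells that express a gene and less RNA per cell cannot be told apart.

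TGFBI (ENSG00000120708.16, chromosome 5, positions 136028895 to 136063818, hg38) is the adhesion protein first named from TGF-β-treated cells. It was measured at 78.9, 78.2 and 71.6 TPM in inhibitor replicates 1 to 3, at 380.6, 216 and 265 TPM with Wnt3a and at 80.2, 49.9 and 64.8 TPM in vehicle. All 3 Wnt3a libraries lay above the other 6, and the inhibitor libraries lay within the range of vehicle on this scale. With Wnt3a it rose 4.07-fold over vehicle (log2 2.03, SE 0.198, edgeR adjusted p = 0.00286). In inhibitor cells it fell to 105 ± 6.55 CPM, against 322 ± 79.8 CPM with Wnt3a (log2 -1.62, SE 0.196, edgeR adjusted p = 0.000112; -1.57 and 0.000503 without inhibitor replicate 1).

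Between inhibitor cells and vehicle, TGFBI had a log2 difference of 0.41 (SE 0.192, 95% interval -0.062 to 0.88, edgeR adjusted p = 0.103; 0.46 and 0.107 without inhibitor replicate 1). The CPM ranges did not overlap, at 98.0 to 111 in inhibitor cells and 60.4 to 93.2 in vehicle, while the TPM ranges did. The difference passed with genes of at least 1 count kept (adjusted p = 0.0449), and its adjusted p over 22 alternatives was 0.0449 to 0.424. The 5 genes whose levels followed TGFBI most closely over the 9 libraries were UBE2H, CAMK1D, PENK, SYTL2 and LOXL4, with Pearson correlations of 0.932 to 0.968 on the log2 CPM scale. These points share the 3 groups and the library scaling.

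POSTN (ENSG00000133110.14, chromosome 13, positions 37562583 to 37598844) encodes periostin, the other fasciclin protein. It was measured at 2.53, 0.81 and 1.08 TPM in inhibitor replicates 1 to 3, at 13.5, 11.3 and 4.50 TPM with Wnt3a and at 1.85, 4.49 and 1.37 TPM in vehicle. Wnt3a replicate 3 and vehicle replicate 2 met at nearly the same level, and the inhibitor libraries lay below every Wnt3a library. In inhibitor cells POSTN fell to 2.62 ± 0.741 CPM, against 19.5 ± 9.04 CPM with Wnt3a (log2 -2.90, SE 0.543, edgeR adjusted p = 0.00151; -3.14 and 0.00341 without inhibitor replicate 1), a 7.46-fold difference. The same test gave an adjusted p of at most 0.00926 in every alternative run.

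With Wnt3a against vehicle, POSTN had a log2 difference of 1.87 (SE 0.512, 95% interval 0.62 to 3.12) that did not pass (edgeR adjusted p = 0.258). It passed with genes of at least 1 count kept (adjusted p = 0.00018) and with DESeq2 (adjusted p = 0.0099), and without vehicle replicate 2 it was 2.67 (edgeR adjusted p = 0.0703). Over 22 alternatives the adjusted p was 0.00018 to 0.777. Between inhibitor cells and vehicle the log2 difference was -1.03 (SE 0.527, 95% interval -2.32 to 0.26, edgeR adjusted p = 0.131; -1.27 and 0.119 without inhibitor replicate 1). Without vehicle replicate 2 it was -0.23 (edgeR adjusted p = 0.696), and single libraries left out gave -1.36 to -0.23. It passed with genes of at least 1 count kept (adjusted p = 0.0117; 0.0117 to 0.696 over 22 alternatives).

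The spread of POSTN among replicates was wide. The highest library exceeded the lowest 1.70-fold in inhibitor cells, 2.86-fold with Wnt3a and 3.86-fold in vehicle, against 1.13-fold, 1.64-fold and 1.54-fold for TGFBI. In each of the 3 groups the order of the libraries by POSTN was their order on the second principal component. Inhibitor replicates 2 and 3 lay close together on that axis, at -31.2 and -28.3. How many of all genes tested share this order was not counted, so it is not shown to be particular to POSTN. Of the other members tested, MATN1 had that order in 2 groups, and TGFBI, MATN2 and MATN3 in 0. TGFBI and MATN3 each had the reverse order in 1 group. What this axis records, and its part in the POSTN values, was not tested. The closest patterns to POSTN were those of ECM1, N6AMT1, CCDC30, DBI and FBN2, with correlations of 0.955 to 0.974 over 9 libraries.

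**Figure D2:**
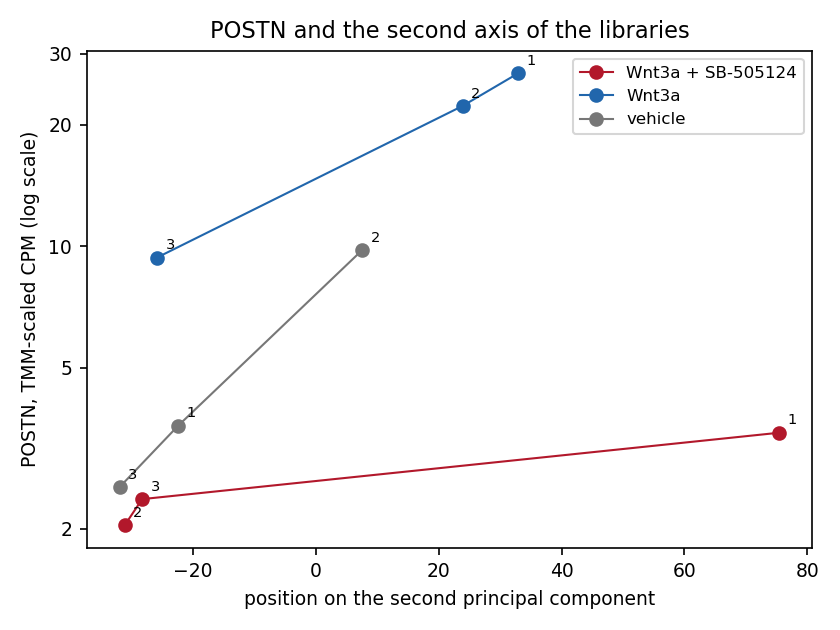
POSTN in CPM on a log scale against the position of each library on the second principal component, with lines joining the 3 libraries of a group and replicate numbers beside the points. Within inhibitor cells, Wnt3a and vehicle alike, POSTN is higher in libraries further to the right, with inhibitor replicate 1 alone at 75.4.

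The transcript length that the authors' estimation assigned to POSTN also differed between libraries. It was 1649, 2990 and 2702 bases in inhibitor replicates 1 to 3, 3034 to 3148 bases with Wnt3a and 2747 to 3141 bases in vehicle. GENCODE 29 lists 10 POSTN transcripts of 380 to 3373 bases, and inhibitor replicate 1, with 91 counts, stood apart with the shortest estimate. With an offset for effective length, chosen after seeing the data, the difference of inhibitor from Wnt3a cells was -2.43 (edgeR adjusted p = 0.00569). For TGFBI the lengths were 1508 to 1839 bases in inhibitor cells, 1650 to 1846 with Wnt3a and 1719 to 1923 in vehicle, which overlap.

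MATN3 (ENSG00000132031.12, chromosome 2, positions 19992111 to 20012694) encodes matrilin 3 of cartilage matrix. It was measured at 4.41, 3.68 and 3.0 TPM in inhibitor replicates 1 to 3, at 11.3, 17.1 and 6.99 TPM with Wnt3a and at 0.98, 0.47 and 1.28 TPM in vehicle. The 3 groups did not overlap, with inhibitor cells between the other two. Inhibitor cells were 5.67-fold above vehicle, at 7.05 ± 1.84 CPM against 1.24 ± 0.470 CPM (log2 2.5, SE 0.367, edgeR adjusted p = 0.000345; 2.31 and 0.000963 without inhibitor replicate 1). MATN3 passed this comparison in all 22 alternatives.

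MATN3 fell in inhibitor cells against Wnt3a cells, at 7.05 ± 1.84 CPM against 15.4 ± 5.66 CPM (log2 -1.13, SE 0.335, edgeR adjusted p = 0.0172; -1.33 and 0.0144 without inhibitor replicate 1). This call was lost without inhibitor replicate 2 or 3 or Wnt3a replicate 2 (adjusted p = 0.0515, 0.0672 and 0.0803) and with limma-voom (adjusted p = 0.0899), the highest of 22 alternatives, whose lowest was 0.000421. Wnt3a cells exceeded vehicle 12.4-fold (log2 3.64, SE 0.376, edgeR adjusted p = 0.00334). The closest patterns were those of RAPH1, MCC, GFOD1, ENOX1 and CASP10, with correlations of 0.931 to 0.952 over 9 libraries.

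The levels of TGFBI, POSTN and MATN3 relative to each other were compared as ratios of TPM within each library. For 1 TPM of TGFBI there was 0.0419 to 0.0559 TPM of MATN3 in inhibitor cells, against 0.00943 to 0.0198 TPM in vehicle, with no overlap (exact permutation p = 0.1, two-sided, the smallest that 3 against 3 libraries allow). MATN3 was 1.74 to 4.54 times POSTN in inhibitor cells, against 0.105 to 0.934 times in vehicle (exact permutation p = 0.1). POSTN over TGFBI overlapped, at 0.0104 to 0.0321 in inhibitor cells and 0.0211 to 0.0901 in vehicle (exact permutation p = 0.3). Between inhibitor and Wnt3a cells MATN3 over TGFBI overlapped as well, at 0.0419 to 0.0559 and 0.0264 to 0.0791 (exact permutation p = 0.7). Over the 9 comparisons of ratios, the smallest Benjamini-Hochberg adjusted exact p was 0.225. As no exact p here can go below 0.1, none could pass 0.05. The test therefore cannot decide whether the ratios differ. In inhibitor replicates 2 and 3 alone the ratios were 0.0419 to 0.0471 for MATN3 over TGFBI, 2.78 to 4.54 for MATN3 over POSTN and 0.0104 to 0.0151 for POSTN over TGFBI, the last then below the vehicle range.

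**Figure D3:**
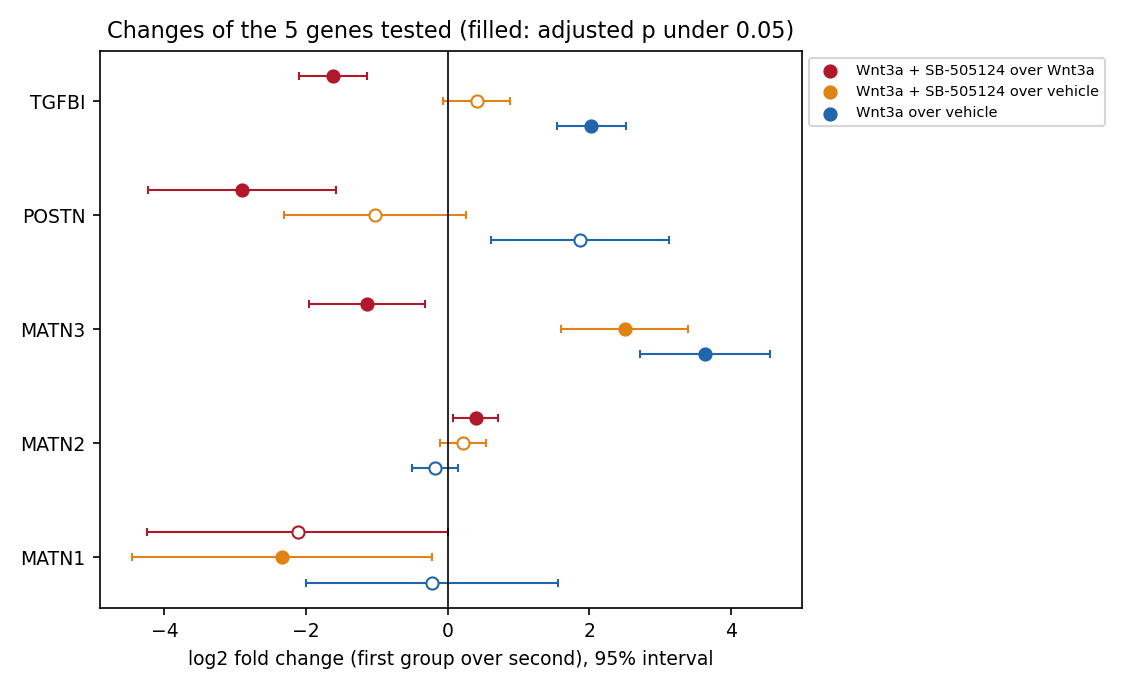
Log2 fold change of the 5 genes tested in the 3 comparisons, first group over second, with 95% intervals; filled points had an edgeR adjusted p under 0.05. TGFBI and POSTN lie to the left for inhibitor over Wnt3a and near or across 0 for inhibitor over vehicle, whereas MATN3 stays to the right of 0 over vehicle.

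MATN2 (ENSG00000132561.13, chromosome 8) encodes a broadly expressed matrilin. It was measured at 7.40, 7.95 and 6.90 TPM in inhibitor replicates 1 to 3, at 8.52, 6.32 and 6.93 TPM with Wnt3a and at 8.62, 7.37 and 7.19 TPM in vehicle, and all 3 groups overlapped on this scale. On the CPM scale with TMM factors it was 17.6 ± 1.19 in inhibitor cells and 13.4 ± 1.47 with Wnt3a (log2 0.39, SE 0.131, edgeR adjusted p = 0.0294; 0.39 and 0.0407 without inhibitor replicate 1). The call was lost under other scalings: with library totals alone the log2 difference was 0.15 (adjusted p = 0.337) and on log2(TPM + 1) it was 0.035 (adjusted p = 0.863). It was also lost with genes of at least 1 count kept (adjusted p = 0.119), with the 2 groups alone (adjusted p = 0.0529), with the offset for effective length (adjusted p = 0.0911) and without inhibitor replicate 2 or Wnt3a replicate 2 (adjusted p = 0.0922 and 0.111). Over 22 alternatives the adjusted p was 0.0098 to 0.863. TMM factors were 0.876 to 0.914 in inhibitor libraries, 1.02 to 1.1 with Wnt3a and 1.04 to 1.07 in vehicle, and leaving them out moved the median of all genes to -0.31 for inhibitor over Wnt3a, against -0.06 with them.

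MATN2 did not pass for Wnt3a over vehicle (log2 -0.18, SE 0.131, 95% interval -0.50 to 0.14, edgeR adjusted p = 0.854). For inhibitor over vehicle it was 0.22 (95% interval -0.10 to 0.54, edgeR adjusted p = 0.194; 0.22 and 0.227 without inhibitor replicate 1), with a sign that turned to -0.0089 with library totals. Part of the gene overlaps RPL30, a ribosomal protein gene on the opposite strand, yet MATN2 counts were whole in all 9 libraries. The closest patterns were those of BRK1, EXOC6, EIF4A1, ACYP2 and MRPL15, with correlations of 0.957 to 0.975.

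MATN1 (ENSG00000162510.5, chromosome 1, positions 30711277 to 30723587), the first matrilin described in cartilage, was close to the limit of detection. It had 7.55, 0 and 1.19 expected counts in inhibitor replicates 1 to 3, 23.9, 20.2 and 15.1 with Wnt3a and 25.6, 18.6 and 17.4 in vehicle. A count of 0 in inhibitor replicate 2 allows up to 0.0799 CPM of that library's unscaled total, for counting error only. Inhibitor cells lay below vehicle (log2 -2.34, SE 0.868, edgeR adjusted p = 0.0459; -4.84 and 0.00163 without inhibitor replicate 1), but the call was lost when any library other than inhibitor replicate 1 was left out (adjusted p = 0.0579 to 0.144). Against Wnt3a the log2 difference was -2.12 (SE 0.869, 95% interval -4.24 to 0.0072, edgeR adjusted p = 0.0652; -4.63 and 0.0021 without inhibitor replicate 1), with an adjusted p of 0.0021 to 0.189 over 22 alternatives. Wnt3a over vehicle was -0.22 (SE 0.726, edgeR adjusted p = 0.976).

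The MATN1 counts are uncertain because reads were shared with MATN1-AS1, an antisense gene that overlaps it by 5084 bases. The expected counts of the pair were whole for each in 1 of 9 libraries and their sum was whole in 9 of 9, to within 0.005 counts. The sums were 38, 32 and 25 in inhibitor replicates 1 to 3, 107, 80 and 75 with Wnt3a and 70, 97 and 80 in vehicle. MATN1 was given 0% to 19.9% of them in inhibitor cells, 20.1% to 25.3% with Wnt3a and 19.1% to 36.6% in vehicle. As 1 feature the pair fell in inhibitor cells against Wnt3a (log2 -0.95, edgeR adjusted p = 0.0263) and against vehicle (log2 -0.99, edgeR adjusted p = 0.0225). Without inhibitor replicate 1 these were -1.21 and -1.25 (edgeR adjusted p = 0.00937 and 0.0083). Which strand these reads came from cannot be told apart here. The closest patterns to MATN1, of 13060 genes compared, were those of SRP19, TYW5, ZNF830, SRRM1 and C1QTNF3-AMACR, with correlations of 0.979 to 0.985 over 9 libraries. These points share the 3 groups and the library scaling, and rest on the few and uncertain counts of MATN1.

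**Figure D4:**
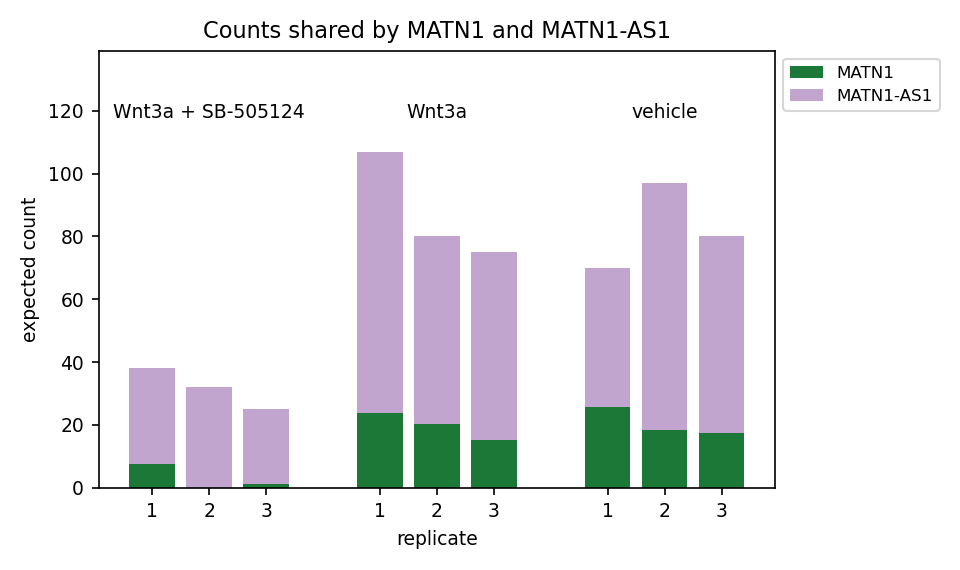
Expected counts of MATN1 (lower part of each bar) and MATN1-AS1 (upper part) in the 3 libraries of inhibitor cells, Wnt3a and vehicle. The bars of inhibitor cells reach 25 to 38 counts, below the 75 to 107 with Wnt3a and the 70 to 97 in vehicle, and most of each bar is MATN1-AS1.

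MATN4 (ENSG00000124159.15, chromosome 20, positions 45293445 to 45308529) encodes matrilin 4 and did not pass the filter on low counts. It had 0 counts in all 3 inhibitor libraries, 0, 1 and 2 with Wnt3a and 2, 0 and 2 in vehicle. These levels cannot be told from each other at this depth. Counts of TGFBI, POSTN, MATN2, MATN3 and MATN4 were whole in all 9 libraries, to within 0.005 counts.

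Of the fasciclin family, STAB1 and STAB2, scavenger receptors with fasciclin domains, did not pass the filter. Of 16 matrix genes with von Willebrand A domains, the matrilins included, 9 were tested. With the inhibitor against Wnt3a, where 24.5% of all genes rose and 25.9% fell, 1 rose and 3 fell (1 and 4 without inhibitor replicate 1), with a median log2 of -0.40, where the median of all genes was -0.06. COL6A3, a collagen VI chain, averaged 1.43 ± 0.372 CPM in inhibitor cells and 29.2 ± 12.4 CPM with Wnt3a (log2 -4.36, SE 0.333, edgeR adjusted p = 8.97e-06; -4.57 and 2.6e-05 without inhibitor replicate 1). Against vehicle, at 2.18 ± 0.103 CPM, its log2 difference was -0.62 (edgeR adjusted p = 0.139; -0.84 and 0.0878 without inhibitor replicate 1). VWA1, a basement membrane protein, fell to 3.62 ± 1.07 CPM in inhibitor cells, against 5.83 ± 0.718 CPM with Wnt3a (log2 -0.68, edgeR adjusted p = 0.0356), and lost its call without inhibitor replicate 1 (-0.46, edgeR adjusted p = 0.0642).

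Of 16 matrix partners of TGFBI and periostin, all tested, 1 rose and 7 fell in inhibitor cells against Wnt3a cells, with the same counts without inhibitor replicate 1 (median log2 -0.40; 24.5% of all genes rose and 25.9% fell). Those that fell were TNC, COL1A1, COL1A2, COL5A1, COL6A3, COL4A1 and COL4A2, and the 1 that rose was CCN3, a matricellular protein listed under its older symbol NOV. COL5A1, a fibrillar collagen chain, averaged 43.3 ± 3.95 CPM in inhibitor cells and 132.9 ± 11.9 CPM with Wnt3a (log2 -1.62, edgeR adjusted p = 4.56e-06; -1.60 and 1.42e-05 without inhibitor replicate 1). With Wnt3a against vehicle COL6A3 alone passed of these 16 by edgeR (median log2 0.49, all genes 0.01), where 0.419% of all genes did. By DESeq2 5 of the 16 passed, and 299 of all genes. At an unadjusted edgeR p under 0.05, 9 of the 16 were higher and 0 lower, against 1362 of 17880 genes in either direction. The collagens were known to change from earlier results of these data.

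Integrin subunits that bind TGFBI or periostin are receptors through which these proteins attach to cells. Of 10 tested of 11, 1 rose and 2 fell in inhibitor cells against Wnt3a cells (3 and 2 without inhibitor replicate 1; median log2 -0.11), where 24.5% of all genes rose and 25.9% fell. ITGB5, a partner of the αv chain, fell to 52.2 ± 4.38 CPM in inhibitor cells, against 109 ± 3.92 CPM with Wnt3a (log2 -1.06, edgeR adjusted p = 4.2e-05; -0.99 and 0.000101 without inhibitor replicate 1). ITGA5, the fibronectin receptor α chain, fell to 139 ± 19.3 CPM in inhibitor cells, against 174 ± 15.2 CPM with Wnt3a, with overlapping libraries (log2 -0.33, edgeR adjusted p = 0.0339; -0.44 and 0.00483 without inhibitor replicate 1). ITGB8, which takes part in activating latent TGF-β, rose to 50.2 ± 12.5 CPM in inhibitor cells, against 24.9 ± 1.48 CPM with Wnt3a (log2 1.01, edgeR adjusted p = 0.000899; 0.80 and 0.000816 without inhibitor replicate 1).

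Of 13 cartilage partners of matrilins 10 were tested, and 0 rose and 1 fell in inhibitor cells against Wnt3a cells, with and without inhibitor replicate 1 (median log2 -0.35; 24.5% of all genes rose and 25.9% fell). This was COMP, a cartilage oligomeric protein, at 0.0629 ± 0.0639 CPM in inhibitor cells and 0.508 ± 0.0540 CPM with Wnt3a (log2 -2.90, edgeR adjusted p = 0.00497; -2.39 and 0.00646 without inhibitor replicate 1). Its mean in inhibitor cells is near the limit of detection, as 3 counts are 0.0799 to 0.104 CPM of the unscaled totals there. The size of this fall is therefore uncertain. Chondrocyte markers, a list of 8 that includes MATN1, summed to 8.08 to 8.36 TPM in inhibitor libraries, 5.93 to 8.35 with Wnt3a and 6.54 to 9.23 in vehicle. Of the 5 tested, 1 rose and 0 fell in inhibitor cells against Wnt3a cells. Without inhibitor replicate 1 the counts were 0 and 1, and the 1 that fell was MATN1 (edgeR adjusted p = 0.0021). With all libraries the 1 that rose was CNMD, at 1.78 to 2.18 TPM in inhibitor libraries and 1.08 to 1.48 with Wnt3a (edgeR adjusted p = 0.0365, and 0.0511 without inhibitor replicate 1). In vehicle replicates 1 to 3 CNMD was at 2.64, 1.53 and 3.74 TPM. Its log2 difference of inhibitor cells from vehicle was -0.096 without inhibitor replicate 1 (edgeR adjusted p = 0.855). COL11A1, a minor fibrillar collagen, made up most of the sum in inhibitor libraries, at 5.52 to 5.97 TPM. Of the defining cartilage genes, the proteoglycan ACAN had at most 2 counts and the collagen COL2A1 at most 9 counts in any library.

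Of 20 TGF-β targets and feedback genes, all tested, 3 rose and 6 fell in inhibitor cells against Wnt3a cells (4 and 6 without inhibitor replicate 1; median log2 -0.19). This is near the share of all genes, of which 24.5% rose and 25.9% fell. LTBP1, which binds latent TGF-β, fell to 56.3 ± 15.7 CPM, against 149.5 ± 34.2 CPM with Wnt3a (log2 -1.41, edgeR adjusted p = 0.000318; -1.66 and 7.6e-05 without inhibitor replicate 1). CCN2, listed under its older symbol CTGF, went the other way without inhibitor replicate 1 (log2 1.27, edgeR adjusted p = 0.001). SMAD7 was at 14.9 ± 2.96 CPM in inhibitor cells and 18.0 ± 0.916 CPM with Wnt3a (log2 -0.27, edgeR adjusted p = 0.157; -0.12 and 0.407 without inhibitor replicate 1). With Wnt3a against vehicle 0 of the 20 passed by edgeR, while 5 were higher and 1 lower at an unadjusted edgeR p under 0.05. Of 17880 genes, 1362 had such a p, in either direction. DESeq2 called 1 of the 20 higher, and 299 of all genes in either direction.

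Of 13 tested of 15 ligands, receptors and SMADs, 6 rose and 3 fell in inhibitor cells against Wnt3a cells (5 and 3 without inhibitor replicate 1; median log2 0.05), where 24.5% of all genes rose and 25.9% fell. The ligand gene TGFB2 rose to 334 ± 1.84 CPM, against 151 ± 27.7 CPM with Wnt3a (log2 1.15, edgeR adjusted p = 5.76e-05; 1.15 and 0.000139 without inhibitor replicate 1). Of 10 tested of 14 Wnt target genes, 7 rose with Wnt3a against vehicle, where 0.397% of all genes rose (median log2 1.63), and in inhibitor cells against Wnt3a cells 2 rose and 4 fell, with and without inhibitor replicate 1 (median log2 -0.51). WIF1, a secreted Wnt antagonist, was between the other groups in inhibitor cells, as MATN3 was, with 6.91 ± 2.5 CPM in inhibitor cells, 38.1 ± 7.75 with Wnt3a (edgeR adjusted p = 6.14e-05 for the difference) and 2.05 ± 0.468 in vehicle (edgeR adjusted p = 0.000619). Without inhibitor replicate 1 its log2 differences were -2.79 against Wnt3a and 1.42 against vehicle (edgeR adjusted p = 2.44e-05 and 0.000832).

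Fibroblast markers summed to 417 to 464 TPM over 10 genes in inhibitor libraries, 585 to 810 with Wnt3a and 489 to 699 in vehicle. Of these 10, 2 rose (LUM and TWIST1) and 5 fell in inhibitor cells against Wnt3a cells (2 and 6 without inhibitor replicate 1). Of all genes, 24.5% rose and 25.9% fell there. The largest part of the sum was THY1, at 192 to 199 TPM in inhibitor libraries, 330 to 514 with Wnt3a and 302 to 494 in vehicle. Ewing sarcoma markers summed to 2902 to 3882 TPM in inhibitor libraries, 4323 to 5357 with Wnt3a and 4432 to 5606 in vehicle, a sum made up largely of CAV1, CD99 and CCND1. In inhibitor replicates 1 to 3 CAV1 was at 1130, 1528 and 1597 TPM and CD99 at 945, 1170 and 1243 TPM, lowest in replicate 1. In the comparison of inhibitor with Wnt3a cells, 25.9% of all genes fell and 24.5% rose. Of the 10 Ewing sarcoma markers 4 fell (NKX2-2, NR0B1, LIPI and CCND1) and 0 rose, with a median log2 of -0.02. Without inhibitor replicate 1, 3 fell and 1, FLI1, rose (log2 0.30, edgeR adjusted p = 0.0326). Osteoblast markers (6 genes, IBSP at 0 in all 9 libraries) summed to 1.39 to 6.63 TPM in inhibitor libraries, 1.04 to 3.49 with Wnt3a and 1.28 to 2.83 in vehicle. Among them BGLAP was at 5.53, 0.53 and 1.36 TPM in inhibitor replicates 1 to 3, so the high end rests on replicate 1. Leukocyte markers (7 genes) summed to 4.56 to 8.38 TPM in inhibitor libraries, 1.64 to 3.94 with Wnt3a and 2.0 to 3.6 in vehicle. Most of this was CD68, a lysosomal protein of macrophages and other cells, at 4.29 to 7.40 TPM in inhibitor libraries, 1.17 to 3.35 with Wnt3a and 1.73 to 3.17 in vehicle. The defining leukocyte gene PTPRC was at most 0.13 TPM in any library. Endothelial and epithelial markers (6 genes each) summed to no more than 2.28 and 2.70 TPM in any library, and the leukocyte markers CD3E and MS4A1 were at 0 in all 9. The part of these differences in the values of the 6 genes was not tested.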

How the data were processed

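The submitters' processing notes name STAR 2.5.2a, RSEM 1.2.31, Trimmomatic 0.36, CASAVA 1.8.2 and the build hg38, without an annotation release or strand setting; the kit was a stranded one, per the labels' protocols. Per the file headers, the authors' table of each library gives the expected count, TPM and FPKM (not used) per gene, with lengths. Of 58278 rows, 45 second rows of pseudoautosomal genes were added to their partners.

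Expected counts were rounded, and 17880 genes passed filterByExpr. An edgeR 4.0.16 quasi-likelihood model (R 4.3.3) with TMM factors covered all 9 libraries; Benjamini-Hochberg adjustment was over all 17880, with a threshold of 0.05. The standard error is the size of the log2 fold change over the square root of F. The 95% intervals use the 6 residual degrees of freedom, fewer than the edgeR test uses. They are therefore wider than the test implies, and can include 0 where the unadjusted edgeR p is under 0.05. CPM are TMM-scaled. On simulated counts for Wnt3a against vehicle (17880 genes), 124 of 200 changed genes were recovered, with 6 false calls. The spread of these counts was taken from the fit itself, and changes were put in the Wnt3a group only. The simulation therefore checks the running of the test and does not bear on the comparisons with inhibitor cells. Alternatives used limma 3.58.1 and DESeq2 1.42.0. Replicates differed beyond sampling noise (chi-square over degrees of freedom of 6.83 or more). Reads carry no molecular identifiers, and the limit for a count of 0 (3 counts) covers counting error only.

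Named from each list were up to 4 genes with the smallest adjusted p for inhibitor against Wnt3a, with AXIN2, SMAD7 and PMEPA1 (a further gene of that rule is not reported here); similar patterns are the 5 highest correlations among genes of at least 1 CPM. Marker genes given with values, and CCN2, were chosen after these values were seen. Members and lists were chosen with earlier results of these data known.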

Additional observations from a re-analysis of the deposited data

How the results depend on the processing

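Of 15 results on single genes, each with 22 alternatives at most, 6 kept direction and call throughout, among them TGFBI and POSTN for inhibitor against Wnt3a, TGFBI and MATN3 for Wnt3a against vehicle and MATN3 for inhibitor against vehicle. Where a call changed, the cause was not tested. For inhibitor against Wnt3a, MATN1 passed with library totals (log2 -2.36), genes of at least 1 count (-2.15), DESeq2 (-2.11), limma-voom (-2.99), log2(TPM + 0.1) (-1.37) and the sum with MATN1-AS1 (-0.95, chosen after seeing the data). MATN2 lost its call with library totals (0.15), genes of at least 1 count (0.37), log2(TPM + 1) (0.035), log2(TPM + 0.1) (0.040), the 2 groups alone (0.37), an offset for effective length (0.36, chosen after seeing the data) and an adjusted p under 0.01 (0.39). MATN3 lost its call with limma-voom (-1.10) and under 0.01 (-1.13). For Wnt3a against vehicle, POSTN passed with genes of at least 1 count (1.89) and DESeq2 (1.87). For inhibitor against vehicle, genes of at least 1 count gave calls for TGFBI (0.39) and POSTN (-1.05), and MATN1 lost its call with the 2 groups alone (-2.35), the offset (-2.61) and under 0.01 (-2.34). The MATN2 difference there turned to -0.0089 with library totals and to -0.050 and -0.056 on log2(TPM + 1) and log2(TPM + 0.1). Without single libraries the log2 values ranged from -4.63 to -1.49 for MATN1, 0.31 to 0.45 for MATN2 and -1.38 to -0.85 for MATN3 (inhibitor against Wnt3a), from -4.84 to -1.71 for MATN1 against vehicle, and from -0.45 to 0.060 for MATN1 with Wnt3a against vehicle, positive only without vehicle replicate 1. For POSTN, inhibitor against vehicle, they ranged from -1.36 to -0.23, the last without vehicle replicate 2. The count of genes called for Wnt3a against vehicle was 75, with 259 at 1 count or more, 299 with DESeq2, 30 under 0.01, and 20 (without vehicle replicate 3) to 140 (without inhibitor replicate 1). With the replicate number as a block, MATN1 passed for inhibitor against Wnt3a (-2.37, adjusted p = 0.0342) and TGFBI for inhibitor against vehicle (0.44, adjusted p = 0.047); no other call on the 6 genes changed, and 79, 9166 and 9039 genes were called for Wnt3a against vehicle, inhibitor against Wnt3a and inhibitor against vehicle. Same-numbered libraries correlated at -0.164 to 0.383 and others at -0.414 to 0.277. The order of group means was the same in TPM and CPM in 14 of 15 pairs. MATN4, with 0 to 2 counts a library, is below what this depth can compare.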
